A study of Mus musculus with 18 samples.

Results

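S100 proteins are small calcium-binding proteins of the EF-hand type, and 10 of their genes were followed here: *S100a1*, *S100a4*, *S100a6*, *S100a8*, *S100a9*, *S100a10*, *S100a11*, *S100a13*, *S100a16* and *S100b*. They were chosen by name, as rows of the count tables and with earlier results of these data known. They make up 10 of the 24360 gene symbols counted in each line. The tables list them in capitals, as S100A1, S100A4, S100A6, S100A8, S100A9, S100A10, S100A11, S100A13, S100A16 and S100B, and mouse names are used below. RNA-seq was read from 18 libraries of 2 mouse mammary tumour lines that do not metastasize, 168FARN and 67NR, grown in culture without further treatment. Each line had WT, *Kmt2c* KO and *Kmt2d* KO cells with 3 replicates per group. In 168FARN the WT columns are named as control sgRNA, and in 67NR as WT. The KO cells had been transfected with Cas9 and 3 sgRNAs against exon 1 of *Kmt2c* or of *Kmt2d*, which encode histone H3 lysine 4 methyltransferases, and were pools of sorted cells rather than clones. No control sgRNA is named for 67NR.

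Most S100 proteins form dimers that change shape when they bind calcium and then dock onto partner proteins inside the cell. Several are also released and bind receptors such as RAGE (*Ager*) and *Tlr4*. Many of the genes lie side by side in the epidermal differentiation region, which is on chromosome 3 in the mouse. *S100a4*, also named metastasin, binds non-muscle myosin and is known for its link to tumour cell motility. *S100a8* and *S100a9* form calprotectin, the main S100 protein of neutrophils and monocytes, and *S100b* is best known from astrocytes and Schwann cells.

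Totals of 14359760 to 43427382 counts per library in 168FARN and 40951775 to 79251530 in 67NR lay behind the values, and a level of 3 counts corresponds to 0.0691 to 0.209 CPM (counts scaled to the total of the library by edgeR's TMM method) in 168FARN and to 0.0379 to 0.0733 CPM in 67NR. In 67NR, 91.2% to 96.2% of the counts from 1 to 20 were even, against 39.5% to 47.2% in 168FARN, and the 2 tables cannot be told apart from the 2 lines. A count may thus stand for a different unit in each, so totals, floors and low counts of the lines are not directly comparable. Replicate 3 stood apart from replicates 1 and 2 in every group. Deviations from the group means correlated between the same replicate numbers of different genotypes in each line, most for replicate 3. Some pairs of different numbers correlated as highly as same-numbered pairs of replicates 1 and 2. Results are also given with the replicate number as a block. No targeted gene was called lower in its own KO cells. *Kmt2c* was at 85.5 to 95.7 CPM in 67NR *Kmt2c* KO and 54.6 to 63.1 CPM in 67NR WT libraries (log2 fold change 0.63, adjusted p = 0.0067 by edgeR). It was at 94.8 to 113 CPM in 67NR *Kmt2d* KO libraries, also above WT. The other 3 tests of a targeted gene in its own KO cells had adjusted p-values from 0.56 to 1. Counts over a whole gene do not show small deletions in an exon, so the groups are named as the labels give them, and this holds for each direction below. The study reported mutant reads at the targeted sites in each KO pool and less of the protein by immunoblot. The share of mutant reads was lowest in 67NR *Kmt2c* KO cells. Of the 15 epithelial markers, *Epcam* had 0 counts in all 9 libraries of 168FARN and *Cdh1* was under 0.0866 CPM there, whereas *Krt8* was at 97.5 to 390 CPM.

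Levels per length of transcript ordered the 10 genes in a similar way in the WT cells of both lines, apart from *S100a4* and *S100a16*. In 168FARN WT cells *S100a4* was highest at 4088 ± 2749 CPM per kb (SD, n = 3, all 18 libraries scaled together). *S100a6* followed at 2697 ± 808, *S100a11* at 1590 ± 844 and *S100a10* at 980.1 ± 236 CPM per kb, where the gap between *S100a6* and *S100a11* exceeded the SD of each and the other 2 gaps were within the larger SD of the pair. *S100a1* was far below them at 35.9 ± 8.39 CPM per kb, then *S100a13* at 8.45 ± 0.607 and *S100a16* at 4.19 ± 0.479. *S100a8* and *S100b* were at 0.387 and 0.036 CPM per kb, and *S100a9* had no counts. In 67NR WT cells *S100a6* was at 1353 ± 1274 CPM per kb and *S100a11* at 1309 ± 1481. *S100a10* was at 541.6 ± 460 and *S100a4* at 491 ± 534 CPM per kb. *S100a4* was the fourth of these levels in 67NR WT and the highest in 67NR *Kmt2c* KO and *Kmt2d* KO cells, at 3151 ± 2116 and 2554 ± 2199 CPM per kb. In both lines the WT SDs include the replicate 3 shift that these genes share, so they do not measure gaps within a library. Within each WT library *S100a6* was above *S100a4* per kb in 67NR, and *S100a4* was above *S100a6* in 168FARN. The 10 genes together took 0.403% to 0.943% of all counts in 168FARN libraries, 0.0961% to 0.475% in 67NR WT libraries and 0.232% to 0.896% in 67NR KO libraries.

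**Figure D1:**
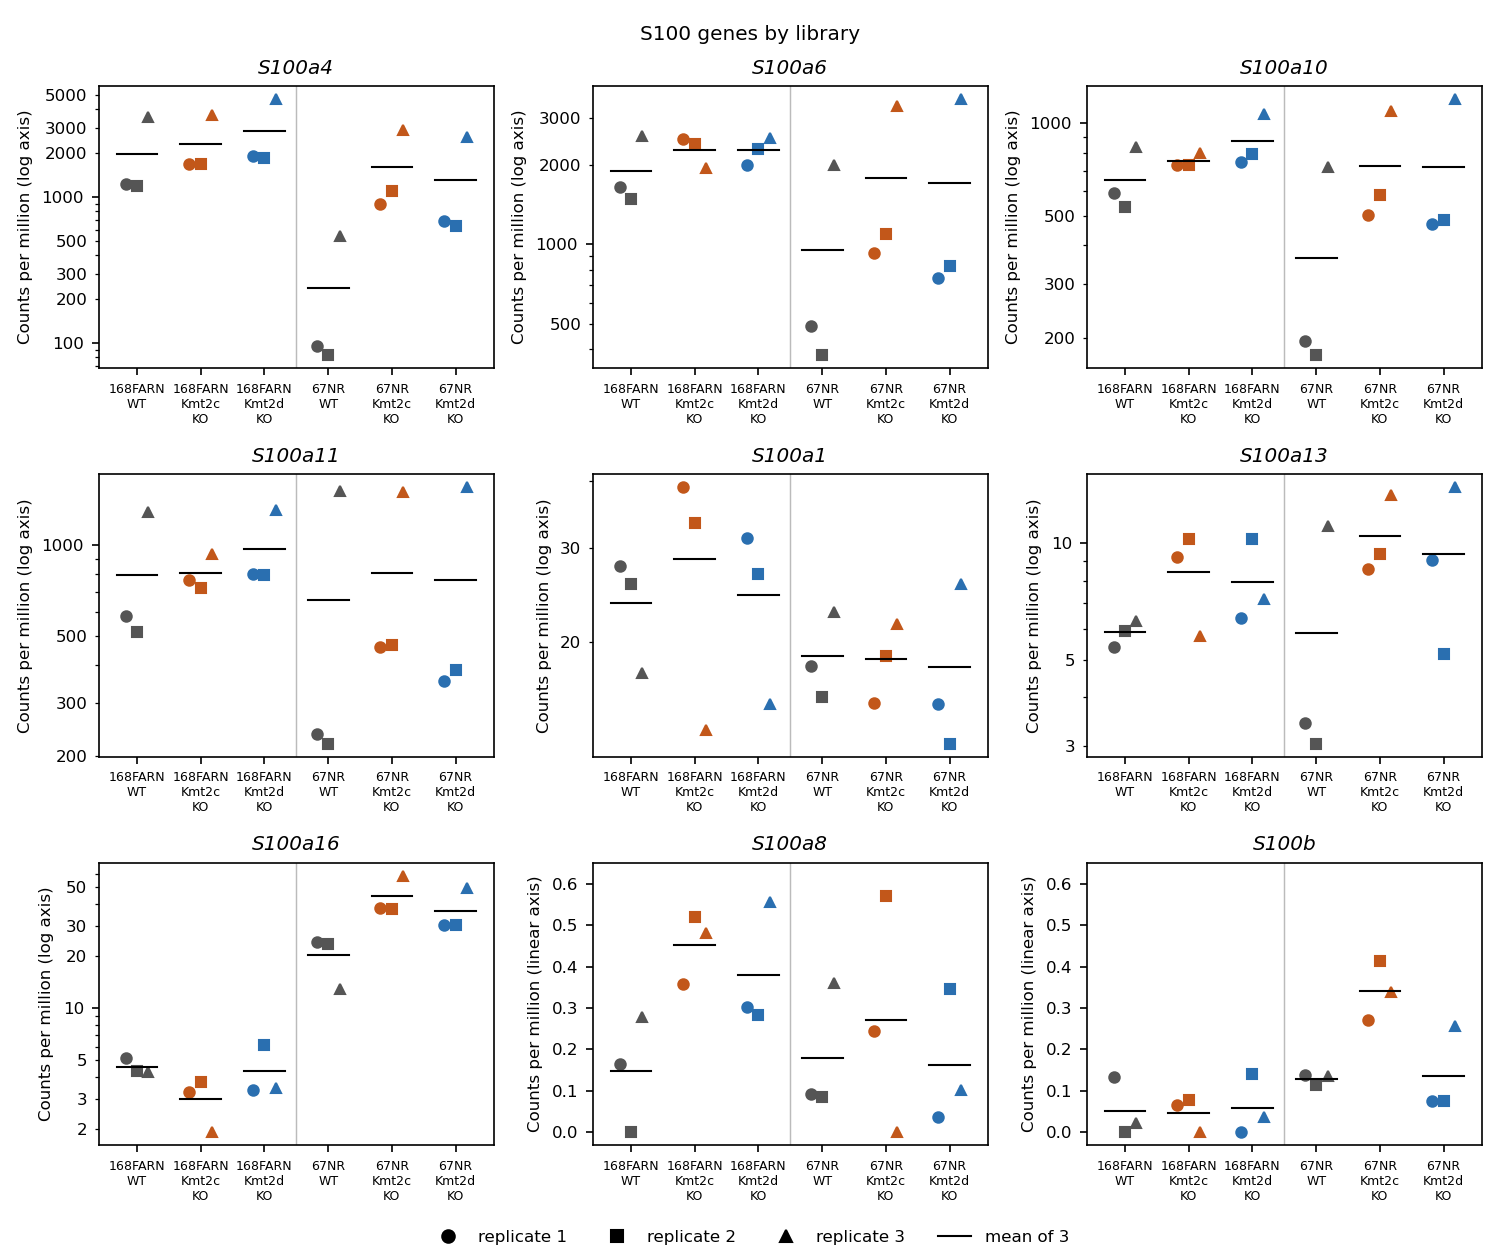
CPM of 9 S100 genes in each of the 18 libraries, by line and genotype, with replicates 1 to 3 as circles, squares and triangles and the mean of 3 as a bar (log axes, linear for S100a8 and S100b). S100a4 in 67NR WT cells lies below all 67NR KO libraries, S100a16 is higher in all 67NR than in all 168FARN libraries, and replicate 3 is highest for S100a4 in each group.

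The comparison of KO with WT cells asks which of these genes differed between each KO pool and WT cells of its line. The replicates of a group are collections of the same cells. Loss of the targeted gene therefore cannot be told apart from other differences between the pools. In 67NR, with no control sgRNA named, it cannot be told apart from the transfection and sorting either. In 67NR, *S100a4* and *S100a16* were higher in both KO groups than in WT. No S100 gene passed the test in 168FARN, and none differed between *Kmt2c* KO and *Kmt2d* KO cells in either line. Calls needed edgeR's quasi-likelihood test to give a p, adjusted over all genes tested, below 0.1 and the log2 fold change to exceed 0.6 in size. Of 9 S100 genes tested in 67NR *Kmt2c* KO cells, 2 were called, both higher, beside 35.3% of all 13665 genes called and 17.9% called higher. In 67NR *Kmt2d* KO cells 2 of 9 were called, both higher, beside 25.5% of all genes and 13.9% called higher. Shares of 2 in 9 are near those backgrounds. With the replicate block, 6 of 9 rose in *Kmt2c* KO cells, beside 41.3% of all genes called and 21.3% called higher. With the same block 5 of 9 rose in *Kmt2d* KO cells, beside 32.7% called and 17.4% called higher. Over the 9 genes the log2 fold changes had a median of 0.90 (*Kmt2c* KO) and 0.69 (*Kmt2d* KO), beside -0.02 for all genes in each. The genes were chosen with earlier results of these data known, so these shares and medians describe them and are no independent test. The *Kmt2c* KO and *Kmt2d* KO comparisons of a line share the 3 WT libraries.

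**Figure D2:**
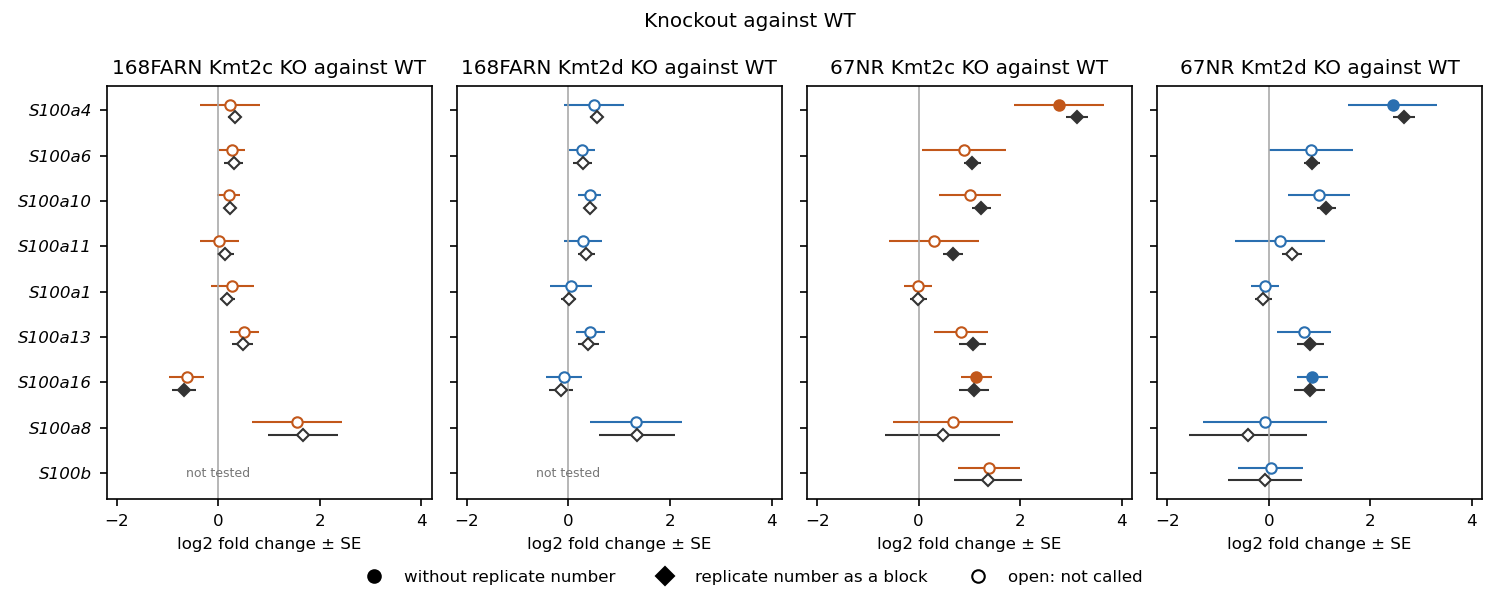
Log2 fold changes with their standard errors for 9 S100 genes in the 4 comparisons of KO with WT cells, as circles without and as diamonds with the replicate number as a block (filled where the gene was called). The 67NR panels hold filled symbols for S100a4 and S100a16 in each fit and for S100a6, S100a10 and S100a13 with the block, and the Kmt2c KO panel of 67NR also for S100a11 with the block.

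*S100a4* has 3 exons on chromosome 3 (mm9, plus strand, 90407692 to 90409967). Its promoter is shown because *S100a4* had the largest log2 fold change of the 9 genes tested in each 67NR comparison of KO with WT cells. The 250 bases before its RefSeq start site are given 5′ to 3′ (GRCm38.p6, plus strand, chr3:90603520-90603769), with the letters TATAAA in capitals.

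S100a4: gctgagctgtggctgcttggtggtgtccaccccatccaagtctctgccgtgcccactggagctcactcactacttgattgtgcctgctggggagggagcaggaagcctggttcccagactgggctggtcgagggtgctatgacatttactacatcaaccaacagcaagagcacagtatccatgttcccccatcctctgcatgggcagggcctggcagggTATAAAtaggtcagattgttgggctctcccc

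The capitals start 31 bases before the start site (position -31), and TATAAA is found on either strand in 13.6% of 32851 promoter windows of 300 bases in the same table. Of the other motifs searched, TGANTCA (for AP-1, with any base at N, in 7.81% of windows) and GGGCGG (the GC box, in 35.7%) have no match in the *S100a4* window.

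*S100a4* in 67NR WT cells was at 95.8, 82.8 and 540.5 CPM in replicates 1 to 3. The 3 *Kmt2c* KO libraries held 900, 1101 and 2867 CPM. Those of *Kmt2d* KO held 689, 638 and 2589 CPM. Every KO library was above every WT library (beside 47.3% and 38.1% of all genes whose groups did not overlap in the *Kmt2c* KO and *Kmt2d* KO comparisons), and the highest WT library was replicate 3, as in the KO groups. The log2 fold change was 2.76 in *Kmt2c* KO (SE 0.889, 6.77-fold, adjusted p = 0.04 by edgeR) and 2.45 in *Kmt2d* KO cells (SE 0.878, 5.45-fold, adjusted p = 0.077). Within replicate numbers 1, 2 and 3 the KO to WT ratio was 9.4, 13.3 and 5.3 for *Kmt2c* KO and 7.2, 7.7 and 4.79 for *Kmt2d* KO. With the replicate block the adjusted p was 6.7e-07 (log2 fold change 3.12) and 3.6e-06 (2.66). Without the block the *Kmt2c* KO call was lost on leaving out WT replicate 1 (2.39, adjusted p = 0.12), WT replicate 2 (2.36, adjusted p = 0.11) or *Kmt2c* KO replicate 3 (2.07, adjusted p = 0.12). The *Kmt2d* KO call was lost on leaving out WT replicate 1 (2.09, adjusted p = 0.2), WT replicate 2 (2.06, adjusted p = 0.19) or *Kmt2d* KO replicate 3 (1.49, adjusted p = 0.23). Without WT replicate 3 the values were 4.18 and 3.87. Fewer cells with the transcript and less of it per cell cannot be told apart in these bulk libraries.

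Markers of cell state also changed in 67NR KO cells. Of 14 epithelial markers tested, 14 fell in *Kmt2c* KO cells and 10 in those of *Kmt2d* KO. Beside these, 35.3% and 25.5% of all genes were called in either direction. The 15 markers summed to 3700 to 5680 CPM in WT libraries, against 761 to 1160 CPM (*Kmt2c* KO) and 1310 to 2320 CPM (*Kmt2d* KO), with 1 marker at 0 in each group. Of 13 mesenchymal markers tested, 8 rose and 1 fell in each KO, beside 17.9% (*Kmt2c* KO) and 13.9% (*Kmt2d* KO) of all genes called higher. *Vim*, which rose, had 256.3 to 1269 CPM in WT libraries, against 2679 to 4389 CPM (*Kmt2c* KO) and 2020 to 4114 CPM (*Kmt2d* KO). *Fn1*, the gene of fibronectin and the marker that fell, had 1831 to 5684 CPM in WT libraries, against 702.9 to 1419 CPM (*Kmt2c* KO) and 1102 to 1683 CPM (*Kmt2d* KO), with log2 fold changes of -1.97 (adjusted p = 0.0076) and -1.56 (adjusted p = 0.031). The 15 mesenchymal markers summed to 3230 to 6060 CPM in WT libraries, against 4680 to 5880 CPM (*Kmt2c* KO) and 4310 to 5810 CPM (*Kmt2d* KO). The part of these markers in the *S100a4* result was not tested.

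In 168FARN, *S100a4* was at 1223, 1197 and 3550 CPM in the WT libraries. Its *Kmt2c* KO values were 1676, 1683 and 3636 CPM, and its *Kmt2d* KO values 1910, 1848 and 4718 CPM. The groups overlapped, since replicate 3 of WT lay above replicates 1 and 2 of each KO. The log2 fold change was 0.23 in *Kmt2c* KO (SE 0.586, adjusted p = 1 by edgeR) and 0.51 in *Kmt2d* KO cells (SE 0.587, adjusted p = 1). These became 0.33 (adjusted p = 0.13) and 0.56 with the replicate block, where the adjusted p of 0.024 passed and the size stayed under the fold threshold. Within replicate numbers the ratio to WT was 1.02 to 1.41 for *Kmt2c* KO and 1.33 to 1.56 for *Kmt2d* KO. The difference between the lines in the KO effect was not called for *Kmt2c* (2.45 on the log2 scale, SE 1.11, adjusted p = 0.19) or *Kmt2d* (1.88, SE 1.1, adjusted p = 0.41), and was called for each with the replicate block (2.71, adjusted p = 2.7e-07, and 2.04, adjusted p = 1.1e-05). WT cells of 67NR had 8.32-fold less *S100a4* than WT cells of 168FARN (log2 fold change -3.06, SE 0.838, adjusted p = 0.0091), and -4.48 without 67NR WT replicate 3. The groups did not overlap, beside 46.6% of all genes.

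*S100a16*, a broadly expressed family member, has 3 exons on chromosome 3 (mm9, plus strand, 90341176 to 90347073). It has 2 promoter windows in the RefSeq table, shown because *S100a16* was the gene called in most comparisons. The 250 bases before each start site are given 5′ to 3′ (GRCm38.p6, plus strand, chr3:90537004-90537253 and chr3:90540896-90541145), with the letters that match TGANTCA or GGGCGG in capitals.

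S100a16 upstream start: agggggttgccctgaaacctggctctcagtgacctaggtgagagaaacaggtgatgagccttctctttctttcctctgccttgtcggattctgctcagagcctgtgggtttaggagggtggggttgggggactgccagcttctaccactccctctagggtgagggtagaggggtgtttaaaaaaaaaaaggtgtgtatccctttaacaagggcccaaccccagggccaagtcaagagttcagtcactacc
S100a16 downstream start: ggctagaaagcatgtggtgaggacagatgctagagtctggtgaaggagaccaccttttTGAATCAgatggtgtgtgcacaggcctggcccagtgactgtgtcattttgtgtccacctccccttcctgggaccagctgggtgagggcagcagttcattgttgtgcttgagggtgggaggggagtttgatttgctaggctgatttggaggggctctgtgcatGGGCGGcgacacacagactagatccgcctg

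The downstream window holds TGAATCA, a match to TGANTCA with A as the free base, from position -192 and GGGCGG from position -30. No match of the 3 motifs was found in the upstream window. The counts are per gene and do not separate the start sites.

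*S100a16* in 67NR was at 24.2, 23.7 and 12.9 CPM in the WT libraries. Against these stood 37.8, 37.5 and 58.5 CPM (*Kmt2c* KO) and 30.3, 30.2 and 49.6 CPM (*Kmt2d* KO). All KO libraries were above all WT libraries, beside 47.3% (*Kmt2c* KO) and 38.1% (*Kmt2d* KO) of all genes whose groups did not overlap. Replicate 3 was the lowest of WT and the highest of each KO. The log2 fold change was 1.14 in *Kmt2c* KO (SE 0.312, 2.2-fold, adjusted p = 0.02 by edgeR) and 0.86 in *Kmt2d* KO cells (SE 0.311, 1.81-fold, adjusted p = 0.08). Within replicate numbers 1, 2 and 3 the KO to WT ratio was 1.56, 1.59 and 4.54 for *Kmt2c* KO and 1.25, 1.28 and 3.85 for *Kmt2d* KO, so replicate 3 had the widest gap. Without replicate 3 of every group, a setting added after the data were seen, the log2 fold change was 0.65 in *Kmt2c* KO (adjusted p = 1.9e-04 by edgeR, called) and 0.33 in *Kmt2d* KO cells (adjusted p = 0.034, under the fold threshold). The *Kmt2d* KO call was lost on leaving out any 1 of the 6 libraries, with log2 fold changes of 0.59 to 1.01 and adjusted p-values of 0.11 to 0.22.

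In 168FARN, *S100a16* was at 5.17, 4.35 and 4.27 CPM in the WT libraries. Its *Kmt2c* KO values were 3.28, 3.73 and 1.92 CPM, and its *Kmt2d* KO values 3.38, 6.15 and 3.44 CPM. *Kmt2c* KO libraries lay below all WT libraries (beside 11% of all genes whose groups did not overlap), whereas the *Kmt2d* KO libraries overlapped them. The log2 fold change in *Kmt2c* KO cells was -0.63 (SE 0.352, adjusted p = 1 by edgeR). Adding the replicate block gave -0.68, called lower (adjusted p = 0.097). That is 1 of 8 S100 genes tested called with the block, beside 7.23% of all genes. The *Kmt2c* KO effect on *S100a16* differed between the lines by 1.68 on the log2 scale (SE 0.476, adjusted p = 0.031 by edgeR), higher in 67NR. This was the 1 S100 gene of 9 called for that difference, beside 16% of all 13882 genes (4 of 9 with the block, beside 34.6%). For *Kmt2d* the difference was 0.90 (SE 0.475, adjusted p = 0.34). WT cells of 67NR had 4.39-fold more *S100a16* than WT cells of 168FARN (log2 fold change 2.13, SE 0.346, adjusted p = 1.5e-04), and all 3 libraries were higher. The WT groups of the lines did not overlap for 46.6% of all genes.

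*S100a6*, *S100a10* and *S100a11* were the other abundant family members. *S100a6*, or calcyclin, binds the ubiquitin ligase adaptors *Cacybp* and *Sugt1*, and lies on the plus strand of chromosome 3 (mm9, 90416816 to 90418336). *S100a6* in 67NR was at 490, 380 and 1988 CPM in the WT libraries. Against these stood 926, 1094 and 3316 CPM (*Kmt2c* KO) and 746, 830 and 3543 CPM (*Kmt2d* KO). Replicate 3 of WT lay above replicates 1 and 2 of both KO groups, so the groups overlapped. The log2 fold change was 0.90 (SE 0.829, adjusted p = 0.45 by edgeR) in *Kmt2c* KO and 0.84 (SE 0.828, adjusted p = 0.53) in *Kmt2d* KO cells. Within replicate numbers each of the 6 ratios to WT was above 1, from 1.67 to 2.88 for *Kmt2c* KO and from 1.52 to 2.18 for *Kmt2d* KO. With the replicate block *S100a6* was called higher in each (1.06, adjusted p = 2.7e-04, and 0.85, adjusted p = 0.0018). In 168FARN it was at 1480 to 2554 CPM in the WT libraries, against 1941 to 2498 CPM (*Kmt2c* KO) and 1990 to 2518 CPM (*Kmt2d* KO), with log2 fold changes of 0.27 and 0.26 (adjusted p = 1 for each).

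*S100a10*, or p11, has lost calcium binding and forms a complex with annexin A2 at the plasma membrane. It lies on the plus strand of chromosome 3 (mm9, 93359002 to 93368565). *S100a10* in 67NR was at 195, 175 and 720 CPM in the WT libraries. Its *Kmt2c* KO values were 502, 585 and 1099 CPM, and its *Kmt2d* KO values 470, 483 and 1203 CPM. Within replicate numbers the ratio to WT was 1.53 to 3.34 for *Kmt2c* KO and 1.67 to 2.76 for *Kmt2d* KO. *S100a10* was not called without the block (log2 fold change 1.00, SE 0.609, adjusted p = 0.24 by edgeR, and 0.98, SE 0.609, adjusted p = 0.29) and was called higher with it (1.23, adjusted p = 2.2e-04, and 1.14, adjusted p = 5.8e-04). *Anxa2*, the gene of its partner, was not called in 67NR *Kmt2c* KO or *Kmt2d* KO cells (log2 fold changes 0.24 and 0.21, adjusted p = 0.7 and 0.77). In 168FARN *S100a10* was at 534 to 839 CPM in the WT libraries, against 730 to 799 CPM (*Kmt2c* KO) and 750 to 1076 CPM (*Kmt2d* KO), and was not called with or without the block. In *Kmt2d* KO cells with the block the adjusted p of 0.068 by edgeR passed, and the log2 fold change of 0.42 stayed under the fold threshold.

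*S100a11*, or calgizzarin, binds annexin A1, and lies on the plus strand of chromosome 3 (mm9, 93324410 to 93330209). *S100a11* in 67NR was at 235.0, 219.0 and 1512 CPM in the WT libraries. Against these stood 460, 465 and 1500 CPM (*Kmt2c* KO) and 354, 384 and 1556 CPM (*Kmt2d* KO). Replicates 1 and 2 of each KO lay above those of WT, and the 3 libraries of replicate 3 lay between 1500 and 1556 CPM. The log2 fold change was 0.30 (SE 0.884, adjusted p = 0.83 by edgeR) in *Kmt2c* KO and 0.22 (SE 0.884, adjusted p = 0.9) in *Kmt2d* KO cells. With the block it was called in *Kmt2c* KO (0.67, adjusted p = 0.012) and not in *Kmt2d* KO cells (0.46, adjusted p = 0.075), which is under the fold threshold. In 168FARN it ranged from 516 to 1304 CPM and was not called.

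Replicate 3 carried more of these transcripts than the mean of replicates 1 and 2 in most groups. The ratio for *S100a4* was 2.16 to 2.93 in the 3 groups of 168FARN and 2.86 to 6.05 in those of 67NR. For *S100a6* it was 3.28 to 4.57 in 67NR and 0.794 to 1.64 in 168FARN, where the *Kmt2c* KO group was the one below 1. For *S100a11* it was 3.24 to 6.66 in 67NR and 1.26 to 2.35 in 168FARN, and for *S100a10* 2.02 to 3.89 and 1.09 to 1.49. *S100a1* went the other way in 168FARN, with ratios of 0.378 to 0.656, and was at 1.27 to 1.82 in 67NR. Replicates were collected a passage apart, the labels do not say what sets replicate 3 apart, and its part in these levels beyond the block was not tested.

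**Figure D3:**
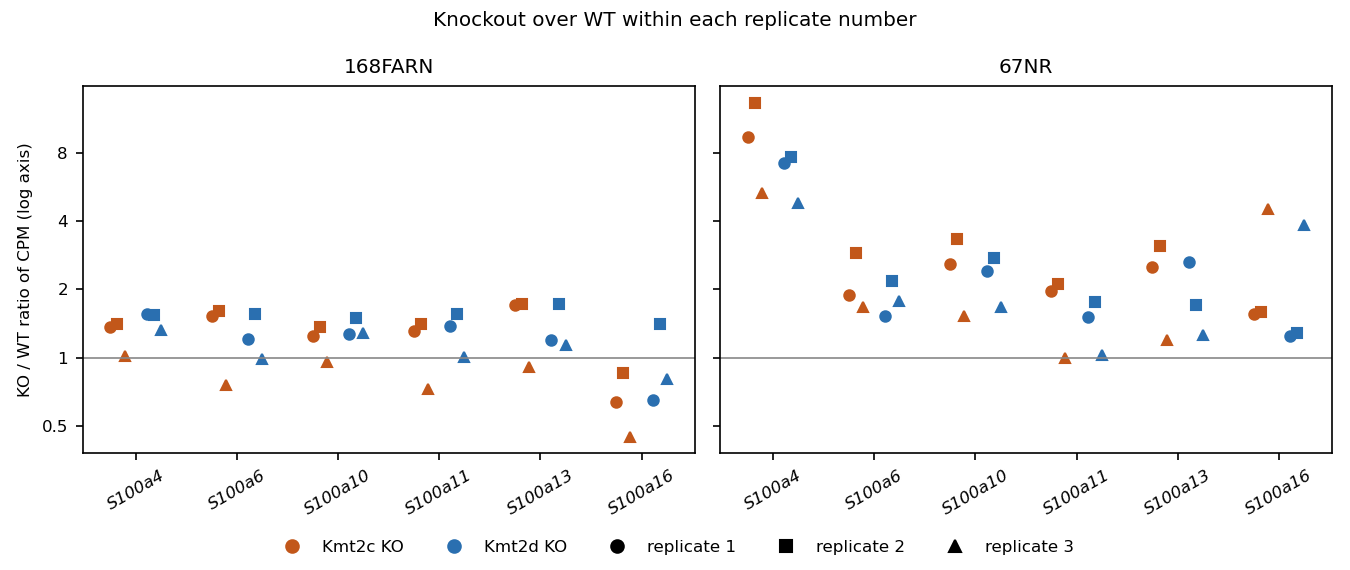
Ratio of KO to WT CPM within each replicate number for 6 S100 genes, in 168FARN and 67NR (log axis, line at a ratio of 1). In 67NR the S100a4 ratios run from 4.79 to 13.3 with replicate 3 lowest, whereas for S100a16 replicate 3 has the highest ratios, 3.85 and 4.54.

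*S100a1* and *S100a13* lie head to head on chromosome 3, *S100a1* on the minus strand (mm9, 90314956 to 90318314) and *S100a13* on the plus strand (90318357 to 90328503), 43 bases apart. *S100a1* is best known from heart and muscle, where it acts on calcium release. *S100a1* was at 13.7 to 39.0 CPM in 168FARN and 12.9 to 25.8 CPM in 67NR and was called in no comparison of genotypes, with or without the block, with log2 fold changes from -0.07 to 0.28 against WT. *S100a13*, which takes part in the release of fibroblast growth factor 1, was at 3.43, 3.04 and 11.1 CPM in the 67NR WT libraries. Its *Kmt2c* KO values were 8.61, 9.41 and 13.3 CPM, and its *Kmt2d* KO values 9.07, 5.19 and 13.97 CPM. Each KO replicate of *S100a13* was above the WT replicate of the same number, by 1.2- to 3.1-fold. Its log2 fold changes were 0.84 (SE 0.531, adjusted p = 0.26 by edgeR) and 0.69 (SE 0.531, adjusted p = 0.41), and with the block 1.07 (adjusted p = 0.0064) and 0.82 (adjusted p = 0.03), called higher. In 168FARN *S100a13* was at 5.40 to 10.3 CPM and was not called, although all *Kmt2d* KO libraries were above WT (beside 10.6% of all genes whose groups did not overlap). Whether the counting used strand is not given in the sources used here.

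*S100a8*, *S100a9* and *S100b* were at or near the limit of counting. *S100a9* (mm9, chromosome 3, minus strand, 90496554 to 90499643) had 0 counts in 17 libraries and 2 counts in 67NR *Kmt2d* KO replicate 2, and was tested in no fit. A count of 0 allows up to 0.0691 to 0.209 CPM in the libraries of 168FARN. *S100a8* (mm9, chromosome 3, plus strand, 90472993 to 90473956) had at most 0.571 CPM, with 0 counts in 168FARN WT replicate 2 and 67NR *Kmt2c* KO replicate 3. It was at 5, 0 and 12 counts in 168FARN WT, 11, 20 and 18 counts in *Kmt2c* KO and 7, 4 and 15 counts in *Kmt2d* KO cells. The 2 KO groups of 168FARN lay above WT in CPM without a call (log2 fold changes 1.56, SE 0.887, and 1.33, SE 0.909, adjusted p = 1 for each by edgeR), beside the same 11% and 10.6% of all genes. *S100b* (mm9, chromosome 10, plus strand, 75716598 to 75723904) had 0 to 4 counts per library in 168FARN, where it was not tested. In 67NR, where most low counts were even, it was at 12, 8 and 6 counts in WT. *Kmt2c* KO cells had 20, 26 and 14 counts and *Kmt2d* KO cells 4, 4 and 10 counts. *Kmt2c* KO libraries were above WT and *Kmt2d* KO libraries in CPM without a call (log2 fold change 1.38 against WT, SE 0.609, adjusted p = 0.11 by edgeR, and 1.35 against *Kmt2d* KO, SE 0.623, adjusted p = 0.48), beside 47.3% and 19.4% of all genes whose groups did not overlap. The 12 myeloid markers summed to 3.63 to 92.4 CPM over all libraries. *Cd68*, a lysosomal protein of macrophages, made up most of the highest sums, at 2.78 to 91.6 CPM in 168FARN and 19.3 to 82.2 CPM in 67NR. *Lyz2* was at most 4.14 CPM and *Csf1r* at most 3.60 CPM, and the leukocyte genes *Ptprc* and *Itgam* were at most 0.148 and 0.205 CPM. The 7 glial and Schwann cell markers summed to 0.934 to 4.8 CPM in 168FARN and 7.74 to 40 CPM in 67NR, with *Sox10* at most 0.109 CPM.

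The remaining comparisons gave few calls. In 168FARN 0 of 8 S100 genes were called by edgeR in *Kmt2c* KO, *Kmt2d* KO or between the KO groups, beside 0.359%, 0.286% and 0.253% of 12253 genes. None of the 8 had an unadjusted p under 0.05 in these 3 tests, and DESeq2 also called 0. Between *Kmt2c* KO and *Kmt2d* KO in 67NR 0 of 9 were called by edgeR, 0 had an unadjusted p under 0.05 and DESeq2 called 0, beside 1.41% of all genes called. For the difference between lines in the *Kmt2d* KO effect edgeR called 0 of 9, with 0 at an unadjusted p under 0.05 and 0 called by DESeq2, beside 10.6% of all genes (2 with the replicate block, *S100a4* and *S100a10*, beside 28.4%). Between WT cells of the lines 2 of 9 were called, *S100a16* higher and *S100a4* lower in 67NR, beside 39.2% of all genes. The replicate block was fitted within each line, with replicate 1 as its reference. Its contrast between WT lines therefore compares fitted levels of replicate 1 and is no average over the replicates. On that contrast 6 of 9 were called, beside 52.5%. *S100a1*, *S100a6*, *S100a10* and *S100a11* were then also lower in 67NR (log2 fold changes -0.91, -1.99, -1.52 and -1.29). In WT replicate 3 *S100a11* was at 1543 CPM in 67NR and 1309 CPM in 168FARN, with all 18 libraries scaled together.

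Other S100 genes stand between the members on chromosome 3, where 11 S100 genes from *S100a1* to *S100a9* span 0.185 Mb and *S100a11* and *S100a10* lie beyond a gap of 2824767 bases. Of 4 further family genes tested in 67NR, 3 rose in *Kmt2c* KO cells and 2 in those of *Kmt2d* KO, beside 17.9% and 13.9% of all genes called higher, and of 3 tested in 168FARN none was called (0 with the replicate block). *S100a7a*, the mouse relative of the psoriasins, was at 3.38, 3.98 and 4.80 CPM in the 67NR WT libraries. Against these stood 15.8, 18.8 and 69.5 CPM (*Kmt2c* KO) and 16.1, 12.3 and 39.4 CPM (*Kmt2d* KO). Every KO library was higher than every WT library (log2 fold changes 3.10, SE 0.649, adjusted p = 0.0056 by edgeR, and 2.48, SE 0.634, adjusted p = 0.021). Groups did not overlap for 47.3% and 38.1% of all genes in these comparisons. In 168FARN WT libraries *S100a7a* was at 5.63, 5.12 and 80.7 CPM. Its log2 fold change in 67NR WT against 168FARN WT was -2.91 (adjusted p = 0.091 by edgeR), and it rested on replicate 3 of 168FARN, without which it was -0.48 (adjusted p = 0.78). With the replicate block, which compares fitted replicate 1 levels between the lines, it was -1.104 (adjusted p = 0.01 by edgeR). The call was also lost on leaving out any 1 of the 3 67NR WT libraries (-2.81 to -3.04, adjusted p = 0.15 to 0.2).

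*S100a3*, the neighbour of *S100a4*, was at 3.60, 2.77 and 10.0 CPM in the 67NR WT libraries. Its *Kmt2c* KO values were 9.97, 11.4 and 18.1 CPM, and its *Kmt2d* KO values 11.4, 11.2 and 14.3 CPM. It was called higher in each (log2 fold changes 1.27, SE 0.46, adjusted p = 0.059 by edgeR, and 1.18, SE 0.459, adjusted p just under the threshold of 0.1). The *Kmt2c* KO call on *S100a3* was lost without WT replicate 1, WT replicate 2 or *Kmt2c* KO replicate 3 (0.95 to 1.05), and the *Kmt2d* KO call on leaving out any 1 of the 6 libraries except WT replicate 3 (0.87 to 1.26). Without WT replicate 3 the values were 2.04 and 1.95. *S100a14*, an epithelial family member next to *S100a16*, was at 7.80, 6.95 and 6.08 CPM in the 67NR WT libraries. Against these stood 19.2, 18.02 and 17.5 CPM (*Kmt2c* KO) and 6.03, 6.86 and 9.30 CPM (*Kmt2d* KO). All *Kmt2c* KO libraries were above all others (log2 fold change 1.39 against WT, SE 0.208, adjusted p = 8.8e-04, and 1.30 against *Kmt2d* KO, SE 0.208, adjusted p = 0.03). Groups did not overlap for 47.3% of all genes against WT and 19.4% against *Kmt2d* KO. The call between the KO groups was lost without replicate 1 or replicate 2 of either (1.16 to 1.31, adjusted p = 0.14 to 0.17). Against WT the *Kmt2d* KO value of *S100a14* was 0.09 (SE 0.206, adjusted p = 0.81). In 168FARN *S100a14* was at 0.0800 to 0.358 CPM. Of the 20 neighbours in the region that are no S100 genes, 17 were tested in 67NR. Of these 3 rose in *Kmt2c* KO (*Npr1*, *Nup210l* and *Crtc2*) and 1 in *Kmt2d* KO cells (*Nup210l*), with none lower. These shares do not exceed the 17.9% and 13.9% of all genes called higher.

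**Figure D4:**
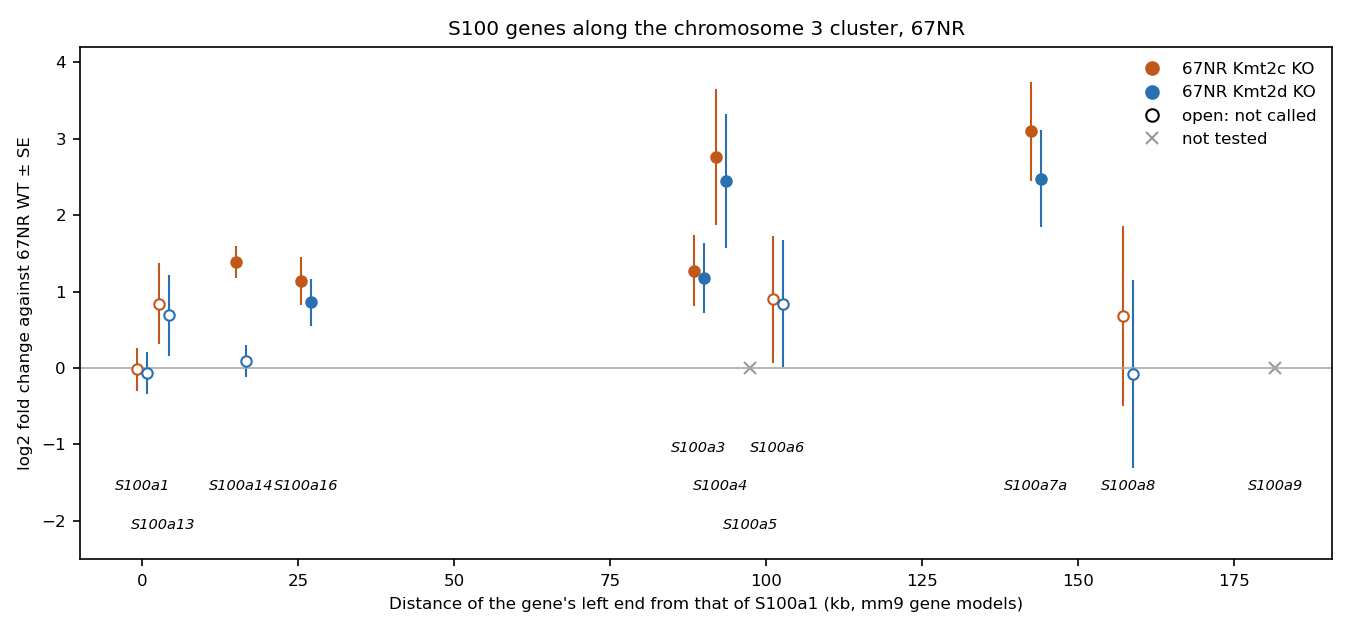
Log2 fold changes with standard errors against 67NR WT of the 11 S100 genes from S100a1 to S100a9, placed by the distance in kb of each gene's left end from that of S100a1 (mm9), filled where called. S100a4 and S100a7a have the largest values in both KOs, 2.45 to 3.10, S100a14 is called in Kmt2c KO only in this plot, and S100a5 and S100a9 were not tested.

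Receptors and partners of S100 proteins were read from lists chosen by function, with earlier results of these data known. Of 6 receptors tested in 67NR, 2 rose in *Kmt2c* KO cells, *Fgfr1* (log2 fold change 3.62, adjusted p = 5.1e-06) and *Cd36* (3.50, adjusted p = 0.056). In *Kmt2d* KO cells *Fgfr1* (3.16, adjusted p = 1.6e-05), *Cd36* (3.36, adjusted p = 0.087) and *Tlr4* (0.74, adjusted p = 0.027) rose, and *Cd33* fell (-1.19, adjusted p = 0.07). *Fgfr1*, a receptor tyrosine kinase reported to bind extracellular S100 proteins, also differed between lines in the *Kmt2c* KO effect (2.84, adjusted p = 0.0032). *Ager*, the gene of RAGE, was not called (-0.30, adjusted p = 0.61, and -0.52, adjusted p = 0.4).

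Of 11 intracellular partners tested in 67NR, 2 rose and 1 fell in *Kmt2c* KO cells. *Mdm2*, a ubiquitin ligase that several S100 proteins bind, rose by 1.77 on the log2 scale (adjusted p = 0.012) and by 1.51 in *Kmt2d* KO cells (adjusted p = 0.033). *Ppp5c*, a phosphatase, rose in *Kmt2c* KO cells (0.78, adjusted p = 0.0051), *Pkp1*, a desmosome protein, fell there (-1.76, adjusted p = 0.086), and *Dlc1* fell in *Kmt2d* KO cells (-0.68, adjusted p = 0.076). *Myh9*, the myosin that *S100a4* binds, was not called (-0.17, adjusted p = 0.48, and -0.42, adjusted p = 0.11), nor was *Ahnak*, a partner of the *S100a10* complex (-0.39, adjusted p = 0.14, and -0.17, adjusted p = 0.57). The median over the 11 partners was -0.17 and -0.13.

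Annexins, which bind membranes with calcium and are partners of several S100 proteins, moved in both directions. Of 10 tested in 67NR *Kmt2c* KO cells 2 rose, *Anxa11* (log2 fold change 1.28) and *Anxa7* (0.67), and 4 fell, *Anxa1* (-1.34), *Anxa3* (-1.38), *Anxa6* (-0.82) and *Anxa8* (-4.29), with adjusted p-values from 5.8e-04 to 0.025. In *Kmt2d* KO cells *Anxa6* (-0.84, adjusted p = 0.0026) and *Anxa8* (-2.33, adjusted p = 0.013) fell and none rose. Of 18 other EF-hand genes tested in 67NR, 3 rose in *Kmt2c* KO cells, among them *Rcn3* (1.84, adjusted p = 0.038) and *Efhd2* (0.78, adjusted p = 0.039), and 2 rose in *Kmt2d* KO cells, *Efhd1* (1.71, adjusted p = 0.048) and *Rcn3* (1.70, adjusted p = 0.071). These shares lie below the 35.3% and 25.5% of all genes called, except for the annexins in *Kmt2c* KO and the receptors in *Kmt2d* KO cells. The 6 fused-type S100 genes present in the tables, such as filaggrin-2 and hornerin genes of the skin, were tested in no fit. In 168FARN 0 genes of these lists were called by edgeR in the comparisons of genotypes without the block. *Fgfr1* with the block was called higher in *Kmt2c* KO (0.61, adjusted p = 0.016) and *Kmt2d* KO cells (1.31, adjusted p = 1.4e-04) and lower in the first of these against the second (-0.70, adjusted p = 0.01). *Anxa8* (-1.95, adjusted p = 0.077) and *Anxa9* (-0.72, adjusted p = 0.0088) were then called lower in *Kmt2c* KO and *Dlc1* (-3.08, adjusted p = 0.029) in *Kmt2d* KO cells, and the direct comparison of the KO groups had *Anxa9* lower with *Kmt2c* KO (-0.81, adjusted p = 0.0071).

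The calls on genes of these lists in 67NR were read again without each of the 6 libraries compared. Those on *Fgfr1*, *Ppp5c*, the annexins, *Npr1* and *Nup210l* held each time, as did the *Kmt2c* KO call on *Mdm2*. The *Kmt2d* KO call on *Mdm2* was lost in 1 of 6. In *Kmt2c* KO cells those on *Cd36*, *Pkp1* and *Crtc2* were lost in 4 of 6, that on *Efhd2* in 3 and that on *Rcn3* in 2. In *Kmt2d* KO cells that on *Rcn3* was lost in 6 of 6, that on *Dlc1* in 5, those on *Cd36* and *Cd33* in 4, that on *Efhd1* in 3 and that on *Tlr4* in 2.

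Among all 13882 genes, those whose 6 group means lay closest to *S100a4* were *Rgs20* and *H1fx*, with a root mean square difference of 0.142 and 0.149 on the centred log2(CPM + 1) scale, where *S100a4* itself ranged over 3.95. Among the genes near *S100a16*, whose range was 3.44, was *Dcdc2a* (0.217). For *S100a6*, *S100a10* and *S100a11*, whose ranges were 1.66, 1.55 and 1.13, the nearest genes were *Knstrn* (0.0648), *C1s2* (0.0715) and *Ncapg* (0.0296). Each distance rests on 6 group means that share line, replicate number and table.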

How the data were processed

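RNA-seq counts of 18 libraries in 6 groups of 3 were used. Per the study's methods, strand-specific mRNA libraries were aligned to mm9 by STAR within VIPER, and the authors deposited raw whole-number counts for each gene symbol. The STAR version, annotation and strand setting are not given in the sources used here. Both tables hold 24360 symbols, 24333 of them shared, and 27 in the 67NR table had turned into dates, none an S100 gene. All columns were matched to samples by name. The study defines its replicates as collections of the same cells separated by a passage, so p-values measure the spread between such collections.

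Counts were tested with edgeR 4.0.16 (R 4.3.3, limma 3.58.1), using TMM scaling, the filter on low counts by group and robust quasi-likelihood fits with group as the factor, over the 9 libraries of a line (12253 genes in 168FARN, 13665 in 67NR) or all 18 (13882 genes, for lines and interactions). P-values were adjusted by Benjamini-Hochberg, with thresholds of 0.1 and, for the size of the log2 fold change, 0.6. SE was obtained from the log2 fold change and F. CPM follows that scaling within a line, and CPM per kb the scaling over 18 libraries with exon lengths from an mm9 annotation (GENCODE M1). Floors of 3 counts use the plain library total and cover counting error only. The method was tested on simulated counts drawn without a replicate effect, which cannot show how it performs with the replicate differences seen here.

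Deviations of same-numbered libraries from their group means correlated at 0.65 to 0.897 over the 9 pairs of 168FARN and 0.351 to 0.717 over the 9 of 67NR. Pairs with different numbers ran from -0.825 to 0.728 in 168FARN and from -0.603 to 0.523 in 67NR, so the ranges overlap. Same-numbered pairs of replicate 3 were the highest (0.856 to 0.897 and 0.535 to 0.717). These values set replicate 3 apart and do not show that replicates 1 and 2 pair by number. For its heatmaps the study removed differences between replicates with collection time as the batch. Which collection each replicate number stands for is not given in the sources used here. Alternatives were the replicate block, DESeq2 1.42.0, its size factors, no filter, no robust fit, other thresholds, fewer libraries and, added after the data were seen, replicates 1 and 2 only, DESeq2 with the block and halved 67NR counts. The 10 genes and the lists were chosen with earlier results of these data known. All 10 genes are named, and other lists are given by counts with up to 6 called genes each, those with the smallest p. Some genes that this rule or the search for similar patterns selects are not reported here. Promoters are from RefSeq (GRCm38.p6), where 9 of 10 genes matched with 10 windows. Figures were drawn with matplotlib 3.10.9.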

Additional observations from a re-analysis of the deposited data

Results flagged for a closer look

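The *Kmt2c* KO effect on *S100a16* differed between the lines, by the interaction test of the fit on 18 libraries. The difference was 1.683 on the log2 scale (SE 0.476, edgeR adjusted p = 0.031). KO libraries were higher than WT in 67NR for each of the 3 replicate numbers (1.56-, 1.59- and 4.54-fold) and lower in 168FARN for each (0.635-, 0.858- and 0.449-fold). The value was 1.006 to 1.989 over the 21 alternatives, with adjusted p-values from 1.7e-04 to 0.07, and was called in all of them. The line, its table and its kind of control (control sgRNA or WT) cannot be told apart. No other result met the criteria used for such a closer look.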

How the results depend on the processing

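Of the 7 called results on single S100 genes, 114 values under an alternative kept the direction, 96 kept the call and 18 lost it. *S100a16* kept its calls in 67NR *Kmt2c* KO cells, between WT lines and in the *Kmt2c* interaction under every alternative run. *S100a4* was called in 13 of 16 alternatives for 67NR *Kmt2c* KO and 10 of 16 for *Kmt2d* KO, and *S100a16* in 7 of 16 for *Kmt2d* KO. The 71 results not called gained a call in 72 of 1168 values and changed sign in 107. The number of S100 genes called moved mainly with the replicate number. With the replicate block it was 1, 0 and 0 in 168FARN (*Kmt2c* KO, *Kmt2d* KO, and between them) and 6, 5 and 0 in 67NR. The block also gave 6 between the replicate 1 levels of the WT lines, and 4 and 2 for the *Kmt2c* and *Kmt2d* interactions. DESeq2 with the block gave 1 in 168FARN *Kmt2c* KO and 6 and 5 in the 67NR KOs. It gave 6 between WT lines, again at replicate 1, and 4 and 3 for the interactions. Replicates 1 and 2 only gave 3 and 1 in the 168FARN KOs, 7 and 5 in the 67NR KOs, 1 between them, 7 between WT lines, and 3 and 2 for the interactions. For 67NR *Kmt2d* KO the count was 1 with no filter on low counts, and 0 with an adjusted p under 0.05 or with only the 6 compared libraries. Leaving out each library in turn gave 1 to 6 for 67NR *Kmt2c* KO, 0 to 3 for 67NR *Kmt2d* KO, 2 to 6 between WT lines, 1 to 3 and 0 to 1 for the interactions, and 0 in 168FARN and between the 67NR KOs. The highest of these for *Kmt2c* KO, between WT lines and in the interactions came without 67NR WT replicate 3 (6, 6, 3 and 1). The lowest for 67NR *Kmt2c* KO came without WT replicate 1, WT replicate 2 or *Kmt2c* KO replicate 3 (1 each), and for *Kmt2d* KO without replicate 1 or 2 of WT or replicate 3 of *Kmt2d* KO (0 each). The cause was not tested. DESeq2 gave no adjusted p for *S100a4* between WT lines, where it called 1. Halved 67NR counts changed no count. Depth limits *S100a8*, *S100a9* and *S100b*.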
